A study of Mus musculus with 18 samples.

Results

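The genes described here are 36 genes of endothelial identity and vascular function, measured in the ventricles of mice in which the gene for serum response factor (SRF), which switches on muscle genes and early growth genes, had been deleted. They were taken by name, as a fixed list, and for genes with several probe sets the one of highest mean signal was used. All 36 lay above the filter on low signal, so they are 36 of the 12616 genes tested. The list holds junction and adhesion proteins, growth factor and guidance receptors, transcription factors, genes of capillary exchange, matrix and surface proteins with the endothelial nitric oxide synthase, genes of Notch signalling, and G protein-coupled receptors with a partner protein.

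Gene expression was measured on Affymetrix arrays, 1 heart per array, in 18 male mice of 10 weeks, of the strain the labels write as CR7BL6. The mutants, labelled SRFHKO, and their littermate controls, labelled SRF-flex2neo, had all received tamoxifen, 0.7 mg on each of 3 days by intraperitoneal injection. At day 25 there were 3 SRFHKO and 3 control hearts with phenylephrine (PE), which activates alpha-1 adrenoceptors, given at 80 mg/kg/day by osmotic minipump from day 10 to day 25, and 3 SRFHKO and 3 control hearts without it. At day 8 there were 4 SRFHKO and 2 control hearts, none with PE. Tamoxifen was thus common to all groups. The sources used here do not name the promoter that drives the deletion, and so not the cells in which SRF was deleted. The titles call the replicates biological.

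Endothelial cells line the blood vessels, and in the heart most of them form the capillaries between the muscle fibres. Vascular endothelial growth factor, acting through Kdr, drives their growth, while Notch and its ligand Dll4 set which cells lead a sprout, and ETS-family and Sox transcription factors hold their identity. In heart capillaries they also pass fatty acids to the muscle cells, a task in which Gpihbp1 and Fabp4 take part.

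The values below are signals scaled to a common array level, in arbitrary units, or differences of log2(scaled signal + 2) with their standard errors (SE) from 1 limma fit over the 18 arrays. Adjusted p values are by Benjamini-Hochberg over all 12616 genes, and a gene is said to have risen or fallen where that value lay below 0.05. The 2% trimmed mean of an array before scaling ranged between 46.3 and 147. At day 25 without PE it was 70.7 to 83.0 in SRFHKO hearts and 46.3 to 68.0 in control hearts. With PE it was 75.4 to 84.9 in SRFHKO hearts and 52.2 to 74.8 in control hearts. Neither pair of ranges overlapped, so genotype and array brightness went together at day 25. A fit with array brightness as a covariate is given beside the calls below. Srf itself was read by 2 probe sets, which at day 25 without PE differed by -0.06 ± 0.19 and by -0.54 ± 0.19 (adjusted p = 0.148 for the lower). With PE they differed by -0.20 ± 0.19 and 0.01 ± 0.19, and at day 8 by 0.23 ± 0.20 and 0.27 ± 0.20 (SE). The position of these probes relative to the deleted part is not known here, so they do not check the labels. The junction and adhesion genes Pecam1 and Cdh5 were read in every heart, at signals of 170.0 to 307 and 119 to 259. All 36 members lay above the filter limit of 9.94 on every array, which is a limit on brightness and does not show the cells a signal came from.

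For the promoters, 18 of the 36 genes were matched in RefSeq's table for assembly GRCm38.p6. Those of Cldn5, Flt1, Aqp1 and Dll4 are shown because these genes had the smallest p value of their functional groups and were in the table. Each is the 250 bases before the transcription start, read 5′ to 3′ on the gene's strand. Capitals mark GGAA or its complement TTCC, the core bound by ETS factors such as Erg, Fli1 and Ets1, and CACCC or its complement GGGTG, a sequence bound by Krüppel-like factors such as Klf2. No marked motifs overlap.
Cldn5 (chr16:18776597-18776846, plus strand): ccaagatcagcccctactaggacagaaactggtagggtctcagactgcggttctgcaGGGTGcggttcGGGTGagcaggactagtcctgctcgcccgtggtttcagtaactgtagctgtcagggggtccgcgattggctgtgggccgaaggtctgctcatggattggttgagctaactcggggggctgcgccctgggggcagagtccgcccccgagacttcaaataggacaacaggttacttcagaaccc
Flt1 (chr5:147726012-147726261, minus strand): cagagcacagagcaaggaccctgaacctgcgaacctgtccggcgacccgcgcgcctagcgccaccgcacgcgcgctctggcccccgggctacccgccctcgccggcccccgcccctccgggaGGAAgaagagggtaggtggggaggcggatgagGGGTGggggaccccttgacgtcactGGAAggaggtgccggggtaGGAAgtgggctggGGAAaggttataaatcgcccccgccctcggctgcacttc
Aqp1 (chr6:55336049-55336298, plus strand): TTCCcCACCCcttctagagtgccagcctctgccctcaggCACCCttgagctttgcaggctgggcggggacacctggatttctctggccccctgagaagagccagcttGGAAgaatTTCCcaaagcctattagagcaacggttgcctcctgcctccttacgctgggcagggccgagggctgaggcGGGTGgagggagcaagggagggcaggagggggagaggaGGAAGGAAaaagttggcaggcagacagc
Dll4 (chr2:119325534-119325783, plus strand): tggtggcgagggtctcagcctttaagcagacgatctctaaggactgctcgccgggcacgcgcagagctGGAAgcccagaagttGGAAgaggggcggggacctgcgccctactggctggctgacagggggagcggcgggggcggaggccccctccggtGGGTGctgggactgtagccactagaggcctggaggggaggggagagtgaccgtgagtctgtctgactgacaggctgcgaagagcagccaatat
The Cldn5 window holds 0 ETS cores and 2 CACCC motifs, that of Flt1 4 and 1, that of Aqp1 5 and 3, and that of Dll4 2 and 1. Over the 22 promoters of the 18 matched genes, 90.9% held an ETS core, against 93.4% of all 32817 promoters. The CACCC motif was in 77.3% of the members' promoters, against 52% of all. The CArG box, the sequence bound by SRF, was searched on both strands in its standard form. It was in 0% of the members' promoters, against 1.47% of all. At that background share 22 promoters are too few to show a difference, and only 250 bases of each were searched. With 1 mismatch allowed the CArG box was in 18.2% of the members' promoters, against 18.6% of all.

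Most of the 36 genes read lower in SRFHKO hearts than in control hearts at day 25 without PE. Of the 36, 2 fell, Cldn5 and Ramp2, and 0 rose. This is 5.56% of the members, against a background of 2.34% of all genes called in either direction, 1.08% called lower and 1.26% called higher. At an unadjusted p below 0.05, 11 members were lower and 0 higher, 30.6% of the list lower, against 10.1% lower and 8.22% higher of all genes. The difference was below 0 for 29 of 36 members (80.6%), against 55.8% of all genes, and the median difference was -0.21 for the members and -0.05 for all genes. In 15 members every SRFHKO heart read below every control heart (41.7%, against 12.4% of all genes), and in 0 the reverse (9.19% of all genes). A separate list of 38 further endothelial genes gave a median of -0.06, near that of all genes, with 0 called by limma and 4 higher and 4 lower at an unadjusted p below 0.05. Summed lung and cardiomyocyte markers were also lower in SRFHKO hearts. For lung the sums were 27.5 to 37.1 in SRFHKO and 49.2 to 104 in control hearts. For cardiomyocytes they were 92160 to 110049 in SRFHKO and 120397 to 130957 in control hearts. The cardiomyocyte markers are themselves muscle genes, the kind that SRF switches on. The part of both tissues in the result was not tested. In whole ventricle, fewer endothelial cells and less RNA per endothelial cell cannot be told apart. Before scaling, the SRFHKO arrays were also all brighter than the control arrays. In these hearts a genotype difference cannot be told apart from one of array brightness. The 2 calls were not firm: with array brightness in the fit 0 members were called (Ramp2 -0.50, adjusted p = 0.192, and Cldn5 -0.997, adjusted p = 0.0921), and with the 6 arrays compared fitted alone 0 were called (adjusted p = 0.0849 for Ramp2 and 0.148 for Cldn5). Leaving out SRFHKO replicate 3 or control replicate 3 also left 0, and leaving out SRFHKO replicate 1, control replicate 1 or control replicate 2 left Ramp2 alone, while the differences kept their sign.

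**Figure D1:**
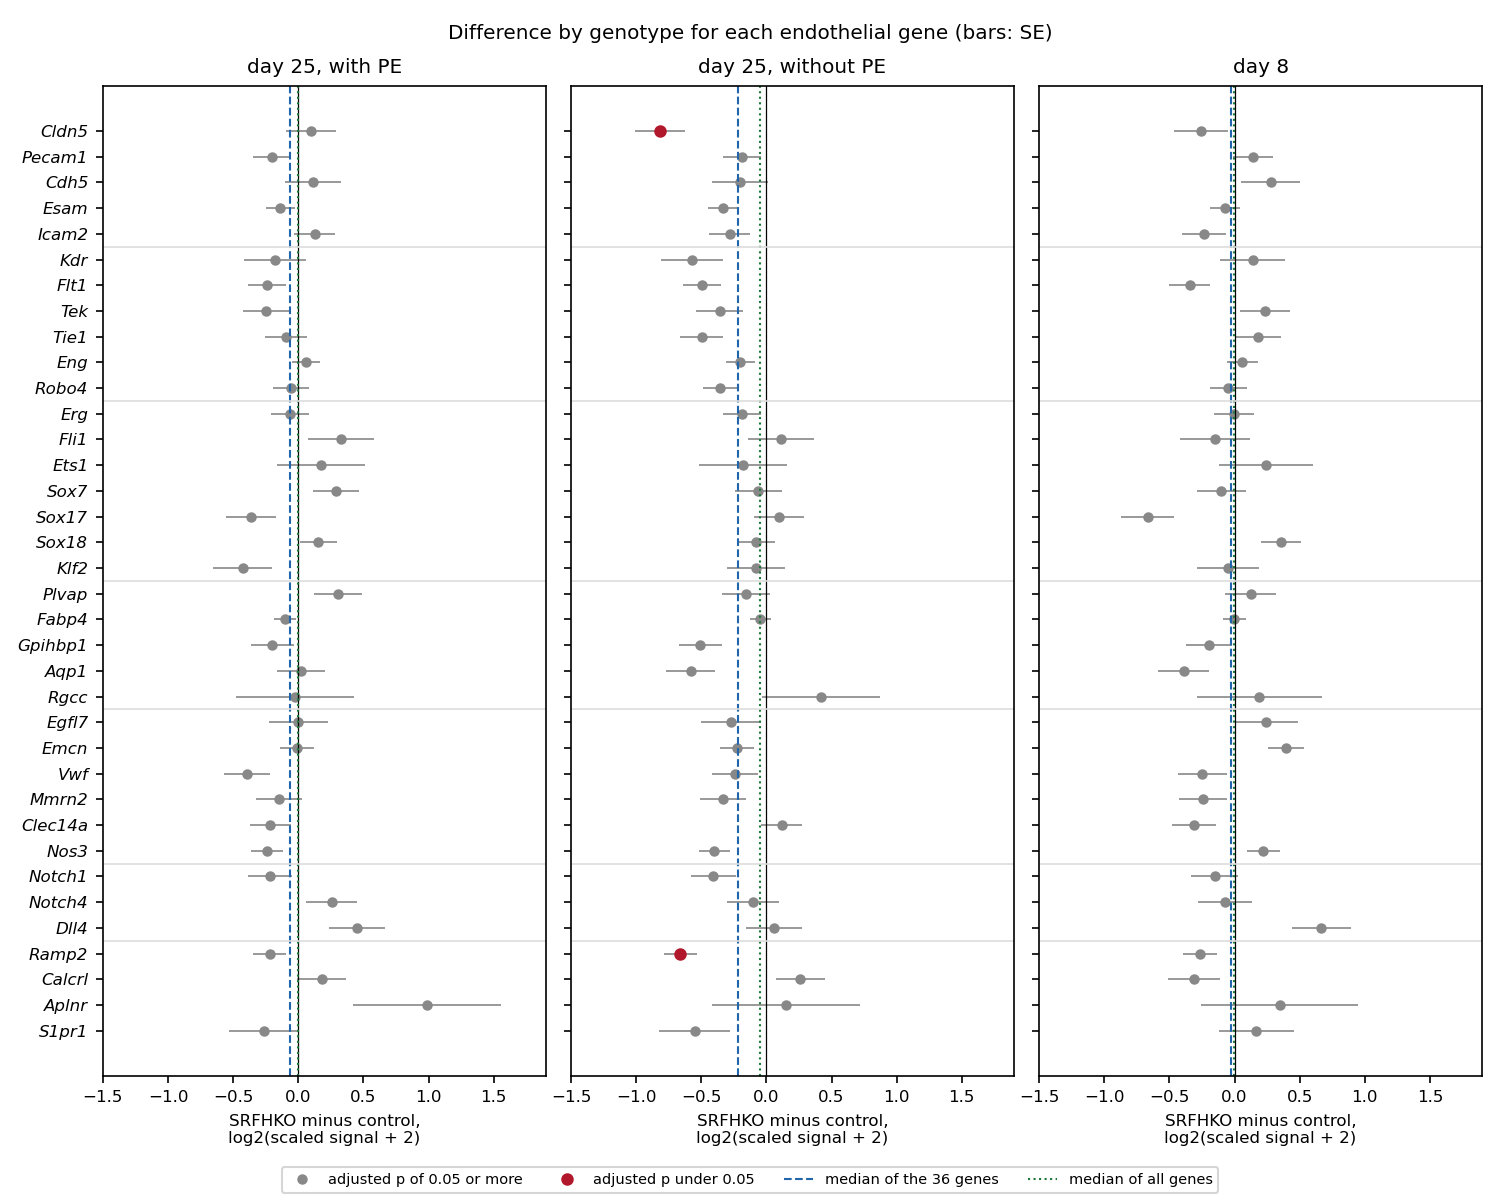
SRFHKO minus control difference of log2(scaled signal + 2) for each of the 36 genes, in functional groups from top to bottom, for the 3 genotype comparisons; points are estimates, bars standard errors, and red marks an adjusted p below 0.05. At day 25 without PE the members' median (dashed blue, -0.21) lies below the median of all genes (dotted green, -0.05), and Cldn5 and Ramp2 are red.

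All 5 junction and adhesion genes had differences below 0 at day 25 without PE, with a median of -0.28. Cldn5, the claudin of endothelial tight junctions, read 55.7, 109 and 83.0 in SRFHKO hearts, against 151, 136 and 138 in control hearts. All 3 SRFHKO hearts lay below all 3 controls, and they were also the more spread group (82.7 ± 26.8 in SRFHKO and 142 ± 8.31 in control hearts, SD, n = 3 each). Cldn5 fell by 0.81 ± 0.19 (SE, adjusted p = 0.0312), which is 1.76-fold. With PE it read 89.9, 126 and 120.0 in SRFHKO hearts and 113, 99.2 and 97.8 in control hearts. These ranges overlapped, and the genotype difference was 0.10 ± 0.19 (SE, adjusted p = 0.879). At day 8 it read 139, 115, 108 and 108 in SRFHKO hearts and 130.3 and 151 in control hearts, and the difference was -0.26 ± 0.20 (SE, adjusted p = 0.791). Esam, an adhesion molecule of endothelial junctions, differed at day 25 without PE by -0.33 ± 0.11 (SE, unadjusted p = 0.00733, adjusted p = 0.114), and its groups did not overlap. It read 409.9, 460.0 and 414 in SRFHKO hearts, against 589, 525 and 508 in control hearts. The other members of the group were Icam2, an adhesion molecule for leukocytes (-0.28), VE-cadherin or Cdh5 (-0.20) and Pecam1, a platelet and endothelial adhesion molecule (-0.19), each with overlapping groups.

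The 6 receptors had the lowest median of the functional groups, -0.43, and all 6 differences were below 0. Flt1, a VEGF receptor that largely acts as a decoy, read 288, 282 and 322 in SRFHKO hearts, against 416, 407 and 436 in control hearts. Every SRFHKO heart lay below every control, and the 3 values were the lowest of all 12 hearts of day 25. The difference was -0.50 ± 0.15 (SE, unadjusted p = 0.0036, adjusted p = 0.0843), which missed the threshold, and 3 further Flt1 probe sets gave -0.39, -0.41 and -0.37. With PE, Flt1 read 346, 331 and 432 in SRFHKO hearts and 433, 409.7 and 462 in control hearts, a difference of -0.24 ± 0.15 (SE, adjusted p = 0.489). At day 8 it ranged between 397 and 632 in SRFHKO hearts and was 561 and 743 in control hearts, a difference of -0.34 ± 0.16 (SE, adjusted p = 0.547). The further probe sets gave -0.56, -0.59 and 0.04 there, so the 4 probe sets did not share a sign at day 8. Kdr, the main signalling receptor for VEGF, differed at day 25 without PE by -0.57 ± 0.24 (SE, unadjusted p = 0.027, adjusted p = 0.205), but its groups overlapped. It read 436, 409 and 390.2 in SRFHKO hearts, against 729, 772 and 406 in control hearts, so 1 control heart lay at the SRFHKO level. Kdr was chosen for this detail after its values were seen. Tie1, an orphan partner of the angiopoietin receptor, differed by -0.50 ± 0.16 (SE, unadjusted p = 0.00677, adjusted p = 0.1097) and Robo4, a vessel-stabilising guidance receptor, by -0.35 ± 0.13 (SE, unadjusted p = 0.0171, adjusted p = 0.169). Tie1 read 103, 105 and 95.9 in SRFHKO hearts, against 147, 162 and 125 in control hearts, and Robo4 read 89.3, 80.6 and 92.9 in SRFHKO hearts, against 115, 109 and 112 in control hearts. The angiopoietin receptor Tek differed by -0.36 ± 0.18 (SE, adjusted p = 0.309) and the TGF-beta co-receptor endoglin (Eng) by -0.20 ± 0.11 (SE, adjusted p = 0.345). The SRFHKO hearts lay wholly below the control hearts for these 4 receptors as for Flt1.

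The 7 transcription factors lay near the median of all genes. Their median difference at day 25 without PE was -0.08, 5 of 7 were below 0, and none reached an unadjusted p below 0.05. The ETS factors gave -0.19 (Erg), 0.11 (Fli1) and -0.18 (Ets1), and only Erg had groups that did not overlap. The Sox factors gave -0.06 (Sox7), 0.10 (Sox17) and -0.08 (Sox18), and the flow-responsive Klf2 gave -0.08. Sox17, a factor of arterial endothelium, had the smallest p of the group at day 8. It read 119.9, 150.02, 168 and 113 in SRFHKO hearts, against 170.1 and 276 in control hearts. The highest SRFHKO heart lay just below the lower control heart, the controls were far apart, and the difference was -0.66 ± 0.20 (SE, unadjusted p = 0.00423, adjusted p = 0.326). A second Sox17 probe set gave -0.29 ± 0.28 (SE), and the one reported here belongs to a class that can cross-hybridise. Without PE at day 25, Sox17 read 146, 158 and 172 in SRFHKO hearts and 119, 179 and 153 in control hearts, with overlap. With PE it read 164, 154 and 142 in SRFHKO hearts, all below the 198, 168 and 232 of control hearts, a difference of -0.37 ± 0.19 (SE, adjusted p = 0.401).

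Of the 5 genes of capillary exchange, 4 had differences below 0 at day 25 without PE, with a median of -0.16. Aqp1, the water channel of capillary endothelium, read 1269, 1160.3 and 1294 in SRFHKO hearts, against 1683, 1717 and 2216 in control hearts. The groups were well apart, and the difference was -0.58 ± 0.19 (SE, unadjusted p = 0.00564, adjusted p = 0.102). With PE the values were 1089, 1046 and 1450.1 in SRFHKO hearts and 927, 1033 and 1650.4 in control hearts, and the groups overlapped. At day 8 Aqp1 read 1487, 1615, 1762 and 1327 in SRFHKO hearts and 2376 and 1718 in control hearts, again with overlap. Gpihbp1, which anchors lipoprotein lipase on capillaries, differed at day 25 without PE by -0.51 ± 0.17 (SE, unadjusted p = 0.00702, adjusted p = 0.112), with groups that did not overlap. It read 677, 909.9 and 729 in SRFHKO hearts, against 928, 962 and 1447 in control hearts, of which 1 stood far above the rest. The brightest member was Fabp4, a fatty acid binding protein of capillary endothelium and fat cells. It read 5812, 6575 and 6083 in SRFHKO hearts and 6119, 6529.8 and 6408 in control hearts at day 25, a difference of -0.05 ± 0.08 (SE, adjusted p = 0.811). With PE the values were 5069, 5511 and 5737 in SRFHKO hearts and 5269.6, 6135 and 6128 in control hearts. At day 8 they were 4839, 4429.5, 4534 and 4419.6 in SRFHKO hearts and 4788 and 4346 in control hearts. Fabp4 was thus higher in all 12 hearts of day 25 than in all 6 hearts of day 8. The trimmed mean before scaling also separated the days, at 46.3 to 84.9 at day 25 and 109.6 to 147 at day 8. A difference by day therefore cannot be told apart from one of array brightness. The summed signal of 6 fat cell markers was 960.4 to 2444 in SRFHKO and 1222 to 2019 in control hearts at day 25 without PE, 495 to 1288 in SRFHKO and 1047 to 1368 in control hearts with PE, and 576 to 729 in SRFHKO and 1014 to 1253 in control hearts at day 8. The sums of every group of day 25 overlapped those of the day 8 hearts. Of the 6 markers, Adipoq separated the days as Fabp4 did, at 62.5 to 338 at day 25 and 8.48 to 58.1 at day 8. Cidec, Retn, Plin4, Pck1 and Car3 overlapped between the days. The part of fat cells in the Fabp4 values was not tested. The dimmest member was Plvap, which forms the diaphragms of caveolae and fenestrae. It read 56.3, 88.6 and 62.9 in SRFHKO hearts and 83.3, 68.8 and 77.0 in control hearts at day 25, and 93.2, 79.4, 84.6 and 92.5 in SRFHKO and 73.7 and 86.6 in control hearts at day 8, with overlap at both days. Rgcc, a cell cycle regulator found in endothelium, was the member with the highest difference at day 25 without PE, 0.42 ± 0.45 (SE, adjusted p = 0.661).

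Among the 6 matrix, surface and secreted proteins with the nitric oxide synthase, 5 differences were below 0 and the median was -0.26. Nos3, which makes the vasodilator nitric oxide, read 198, 185 and 156 in SRFHKO hearts, against 260.1, 218 and 235 in control hearts at day 25 without PE. The groups did not overlap, and the difference was -0.40 ± 0.12 (SE, unadjusted p = 0.0036, adjusted p = 0.0843). With PE Nos3 read 162, 182 and 212 in SRFHKO hearts, again below all control hearts at 213, 214 and 228, but the closest values were 212 and 213, and the difference was -0.24 ± 0.12 (SE, adjusted p = 0.375). At day 8 the order was the other way, with 270.3, 256, 256 and 268 in SRFHKO hearts and 217 and 233 in control hearts, a difference of 0.22 ± 0.13 (SE, adjusted p = 0.6602). Vwf, the clotting glycoprotein made by endothelium and platelets, differed by -0.24 ± 0.18 (SE, adjusted p = 0.496) without PE. With PE it was the member with the smallest p for genotype, -0.39 ± 0.18 (SE, unadjusted p = 0.0404, adjusted p = 0.3097). Mmrn2, an endothelial matrix protein, differed at day 25 without PE by -0.33, Egfl7, a secreted vessel-tube factor, by -0.27, and the sialomucin Emcn by -0.23. Of these 3, Emcn alone had groups that did not overlap. Clec14a, a surface lectin, was the exception in sign, at 0.12.

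The 3 Notch genes gave a median of -0.10 at day 25 without PE. The receptor Notch1 differed by -0.41 ± 0.17 (SE, unadjusted p = 0.0292, adjusted p = 0.212) with groups that did not overlap (176, 218 and 173 in SRFHKO hearts, against 275, 236 and 239.8 in control hearts), whereas Notch4 gave -0.10 and Dll4 gave 0.06. Dll4, the tip-cell ligand, had its smallest p at day 8. It read 83.8, 109, 80.4 and 82.9 in SRFHKO hearts, against 60.6 and 49.8 in control hearts. All 4 SRFHKO hearts were above both controls, and the difference was 0.67 ± 0.23 (SE, unadjusted p = 0.00873, adjusted p = 0.4096). At day 25 without PE the values were 93.2, 81.4 and 63.3 in SRFHKO hearts and 92.2, 59.0 and 77.6 in control hearts, fully intermingled. With PE they were 81.1, 79.1 and 82.9 in SRFHKO hearts and 72.5, 68.1 and 41.1 in control hearts, a difference of 0.45 ± 0.21 (SE, unadjusted p = 0.0499, adjusted p = 0.341). The SRFHKO hearts with PE were all above the controls, the lowest of which stood apart, and a second Dll4 probe set gave 0.40 ± 0.24 (SE) at day 8.

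Ramp2, the protein that makes Calcrl an adrenomedullin receptor, had the smallest p of all members. It read 312, 299 and 248 in SRFHKO hearts, against 414, 429 and 517 in control hearts at day 25 without PE. The highest SRFHKO heart lay well below the lowest control heart. Ramp2 fell by 0.66 ± 0.13 (SE, adjusted p = 0.0109), which is 1.58-fold. With PE it read 242, 252 and 292 in SRFHKO hearts and 279, 298 and 339 in control hearts, overlapping, with a difference of -0.22 ± 0.13 (SE, adjusted p = 0.4500). At day 8 it read 411, 417, 492.8 and 456 in SRFHKO hearts, all below the 563 and 503 of control hearts, with a difference of -0.26 ± 0.13 (SE, adjusted p = 0.596). Its receptor partner Calcrl was on the other side of 0 at day 25 without PE, at 0.26 ± 0.19 (SE, adjusted p = 0.4804). S1pr1, the sphingosine 1-phosphate receptor of endothelial barrier control, differed by -0.55 ± 0.27 (SE, adjusted p = 0.289) with groups that did not overlap. It read 96.7, 97.4 and 85.8 in SRFHKO hearts, against 153, 115 and 147 in control hearts. The apelin receptor Aplnr varied widely within groups. It read 301, 294 and 403 in SRFHKO hearts and 662, 518 and 75.2 in control hearts, a difference of 0.15 ± 0.57 (SE, adjusted p = 0.916), and was chosen for this spread after its values were seen.

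**Figure D2:**
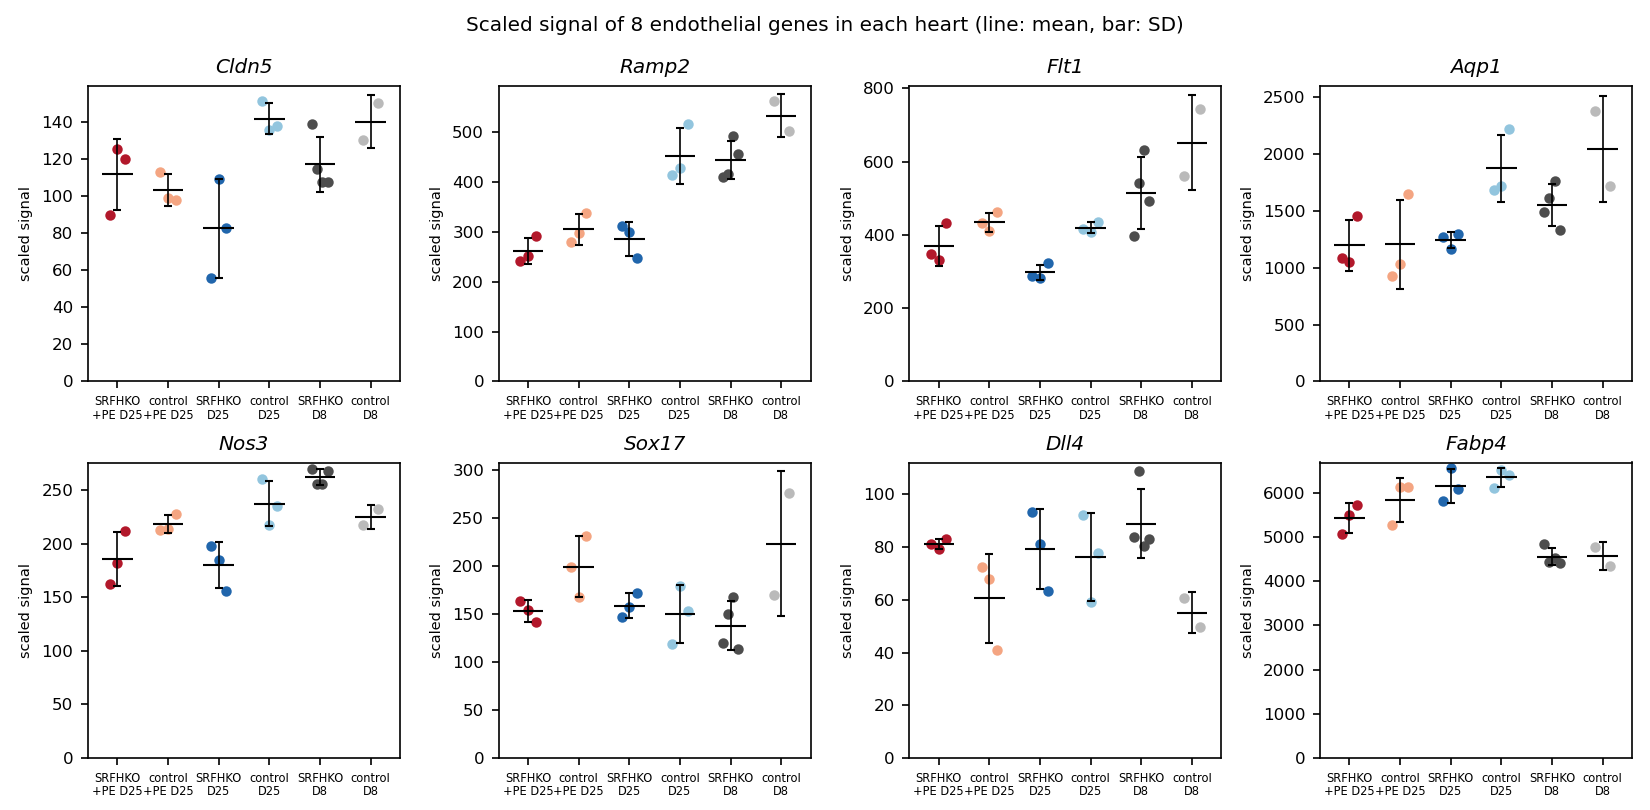
Scaled signal (arbitrary units) in each heart for 8 endothelial genes in the 6 groups; points are hearts, lines group means and bars SD (n = 3 per group at day 25, 4 SRFHKO and 2 control hearts at day 8). The 3 untreated control hearts of day 25 stand above the 3 untreated SRFHKO hearts for Cldn5, Ramp2, Flt1, Aqp1 and Nos3, while Fabp4 separates the days instead. Array brightness before scaling separates the days too, and the genotypes within each treatment at day 25.

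With PE, the genotype differences of the members lay around those of all genes. limma called 0 of the 36 members (1.63% of all genes), with 1 higher and 1 lower at an unadjusted p below 0.05 (7.03% and 7.6% of all genes). The median difference was -0.06, against -0.01 for all genes, and 21 of 36 differences were below 0 (58.3%, against 50.6% of all genes). The groups did not overlap for 4 members. Nos3, Sox17 and Gpihbp1 lay wholly lower in SRFHKO hearts (8.33% of the list, against 10.6% of all genes), and Dll4 lay wholly higher (2.78%, against 9.62%). The median was -0.15 with the probe sets of a gene averaged, -0.15 without control replicate 1 and 0.053 without SRFHKO replicate 1, so its sign rests on single hearts.

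Within control hearts, PE was accompanied by lower values of Ramp2, Aqp1, Cldn5 and other members, none of which passed the threshold. limma called 0 of 36 members for PE against no PE in control hearts, as against 0.0317% of all genes. At an unadjusted p below 0.05, 7 were lower and 1 higher (19.4% of members lower, against 6.07% lower and 4.45% higher of all genes). The differences were -0.57 ± 0.13 (SE, unadjusted p = 0.000263, adjusted p = 0.175) for Ramp2, -0.67 ± 0.19 (SE, unadjusted p = 0.00193, adjusted p = 0.212) for Aqp1 and -0.52 ± 0.18 (SE, adjusted p = 0.302) for Plvap. Those of Gpihbp1 (-0.47), Vwf (-0.44), Cldn5 (-0.45) and Icam2 (-0.37) were the remaining ones lower at an unadjusted p below 0.05, and Sox17, the 1 higher, stood at 0.41. The median of the 36 was -0.19, against -0.03 for all genes, and 28 differences were below 0 (77.8%, against 54.9% of all genes). In 8 members every control heart with PE lay below every control heart without it (22.2%, against 8.73% of all genes), and in 0 the reverse held (5.92% of all genes). The 3 untreated control hearts of day 25 enter both this comparison and that of genotype without PE, so the 2 sets of lower values share those hearts and are not independent of each other. For Cldn5, Robo4, Gpihbp1, Aqp1 and Ramp2 these 3 hearts were above all other 9 hearts of day 25, which holds for 13.9% of the members and 3.16% of all genes. For 0 members were they below the other 9 (2.09% of all genes).

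Within SRFHKO hearts, no member passed the test for PE. limma called 0 of 36 (0.293% of all genes), with 2 higher and 3 lower at an unadjusted p below 0.05 (5.64% and 5.29% of all genes). The median difference was 0.04, 14 of 36 members were below 0 (38.9%, against 50.9% of all genes), and 2 lay wholly higher, Flt1 and Aplnr, and 2 wholly lower, Vwf and Fabp4, with PE (8.6% and 8.38% of all genes). Vwf read 305, 232 and 256 in SRFHKO hearts with PE, against 425, 449 and 326 in SRFHKO hearts without it. These values did not overlap, and the difference was -0.59 ± 0.18 (SE, unadjusted p = 0.00366, adjusted p = 0.1702). In control hearts Vwf read 295, 347 and 401 with PE and 483, 389 and 547 without, a difference of -0.44 ± 0.18 (SE, unadjusted p = 0.0232, adjusted p = 0.387), so Vwf was on the lower side with PE in both genotypes. Platelets also hold Vwf, and the summed signal of 4 platelet markers overlapped between all groups of day 25, at 422 to 806 in SRFHKO with PE, 409.9 to 558 in control with PE, 453 to 583 in SRFHKO and 485 to 557 in control hearts. The part of platelets in the Vwf values was not tested. Klf2 differed by -0.58 ± 0.22 (SE, adjusted p = 0.312), Kdr by 0.64 ± 0.24 (SE, adjusted p = 0.291) and Cldn5 by 0.46 ± 0.19 (SE, adjusted p = 0.369). Fabp4, the member with the smallest spread within groups, differed by -0.18 ± 0.08 (SE, adjusted p = 0.434). For Kdr the SRFHKO hearts with PE read 398, 767 and 859, and the 1 low heart of these lay among the 3 without PE. Without that heart Kdr passed the threshold (adjusted p = 0.0310), the 1 member to do so under any left-out heart in this comparison.

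**Figure D3:**
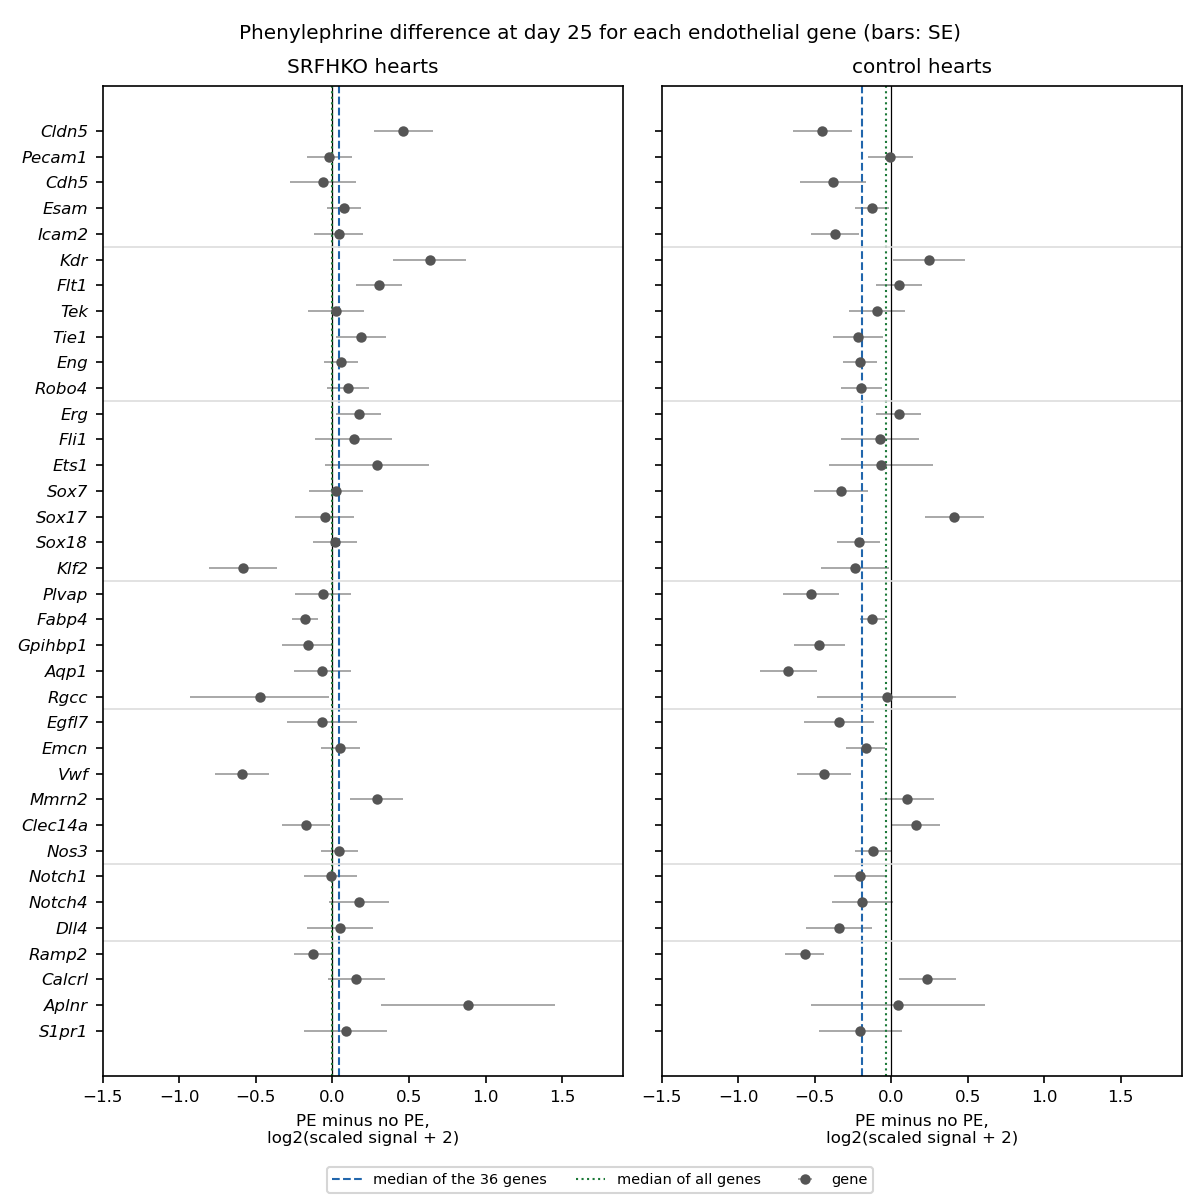
Difference between hearts with and without PE at day 25, on the log2(scaled signal + 2) scale, for each of the 36 genes in SRFHKO hearts (left) and control hearts (right); bars are standard errors. No gene passed the threshold; the members' median (dashed blue) is 0.04 in SRFHKO and -0.19 in control hearts.

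The test of whether the genotype difference itself depended on PE called 0 of the 36 members with limma (0.0238% of all genes), with 3 higher and 0 lower at an unadjusted p below 0.05 (4.3% and 3.21% of all genes). These were Cldn5 at 0.91 ± 0.27 (SE, unadjusted p = 0.00351, adjusted p = 0.501), Ramp2 at 0.44 ± 0.18 (SE, unadjusted p = 0.023, adjusted p = 0.595) and Aqp1 at 0.60 ± 0.26 (SE, unadjusted p = 0.0337, adjusted p = 0.6296), positive values meaning a less negative genotype difference with PE. The median of the members was 0.26, against 0.03 for all genes, and 8 of 36 were below 0 (22.2%, against 46.8% of all genes). The 3 untreated control hearts of day 25 enter this test too, so its values are not independent of the comparisons above that hold them. The loss of the Cldn5 and Ramp2 calls with PE is therefore not shown to be a difference between the 2 genotype comparisons.

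At day 8 no member passed the test for genotype. limma called 0 of 36 (0.0634% of all genes), with 3 higher and 2 lower at an unadjusted p below 0.05 (4.38% of all genes in each direction). The median difference was -0.02, against -0.00 for all genes, with 20 of 36 below 0 (55.6%, against 50.7% of all genes). In addition, 4 members lay wholly higher and 4 wholly lower in SRFHKO hearts (11.1% each, against 9.25% and 9.2% of all genes), a share near the background. Besides Sox17, Dll4 and Flt1, the sialomucin Emcn gave 0.40 ± 0.14 (SE, unadjusted p = 0.00951, adjusted p = 0.4198) and the vascular factor Sox18 gave 0.36 ± 0.15 (SE, unadjusted p = 0.0292, adjusted p = 0.509). Emcn read 406, 477, 399 and 446 in SRFHKO hearts, all above the 362 and 296 of control hearts. With 2 control hearts, the precision at day 8 rests on the spread of the other groups.

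The test of whether the genotype difference changed between day 25 and day 8, without PE, also called 0 of 36 members (0% of all genes, limma), with 2 higher and 5 lower at an unadjusted p below 0.05 (4.98% and 6.12% of all genes). Nos3 gave -0.62 ± 0.18 (SE, unadjusted p = 0.00224, adjusted p = 0.193) and Emcn gave -0.62 ± 0.19 (SE, unadjusted p = 0.00376, adjusted p = 0.214), each with a more negative genotype difference at day 25. Tie1 gave -0.68 ± 0.24 (SE, adjusted p = 0.282), and Sox17 went the other way at 0.76 ± 0.28 (SE, adjusted p = 0.3104). The members' median was -0.26, against -0.03 for all genes, and 29 of 36 were below 0 (80.6%, against 53.6% of all genes). These values share the day 25 hearts of the genotype comparison without PE.

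Per heart, the median of the 36 genes (log2, each gene set relative to its own mean over the 18 hearts) was also set out by group. It lay between -0.18 and -0.03 in SRFHKO hearts and between 0.09 and 0.22 in control hearts at day 25 without PE. With PE it ranged over -0.22 to 0.04 in SRFHKO hearts and -0.19 to 0.01 in control hearts. At day 8 it was 0.05 to 0.13 in SRFHKO hearts and 0.09 to 0.19 in control hearts. The 3 untreated control hearts of day 25 thus overlapped the day 8 hearts, and the other 9 hearts of day 25 lay below all 3 of them. Markers of other tissue were summed in the same hearts. The summed signal of the 3 lung markers measured of 10 fixed (Sftpb, Sftpc and Napsa) at day 25 with PE was 23.7 to 42.6 in SRFHKO and 25.4 to 46.4 in control hearts, beside the values without PE given above. At day 8 it was 30.5 to 46.0 in SRFHKO and 43.9 to 63.7 in control hearts. Lung capillaries carry many of the same endothelial genes, and Napsa, a protease of lung epithelium, fell at day 25 without PE (-1.84 ± 0.38, SE, adjusted p = 0.0178), lying below the filter limit in the 3 SRFHKO hearts. The other 6 lung markers matched on the array lay below the filter. The summed signal of 12 cardiomyocyte markers at day 25 with PE was 91161 to 96951 in SRFHKO and 106385 to 126278 in control hearts. It was thus lower in SRFHKO hearts at day 25 under both treatments. The part of lung tissue or cardiomyocytes in the endothelial values was not tested. At day 8 the cardiomyocyte sum was 82422 to 96457 in SRFHKO and 88943 to 106022 in control hearts. Igha, an antibody chain gene and the 1 lymphocyte marker above the filter, also fell at day 25 without PE (-3.65 ± 0.88, SE, adjusted p = 0.0334).

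**Figure D4:**
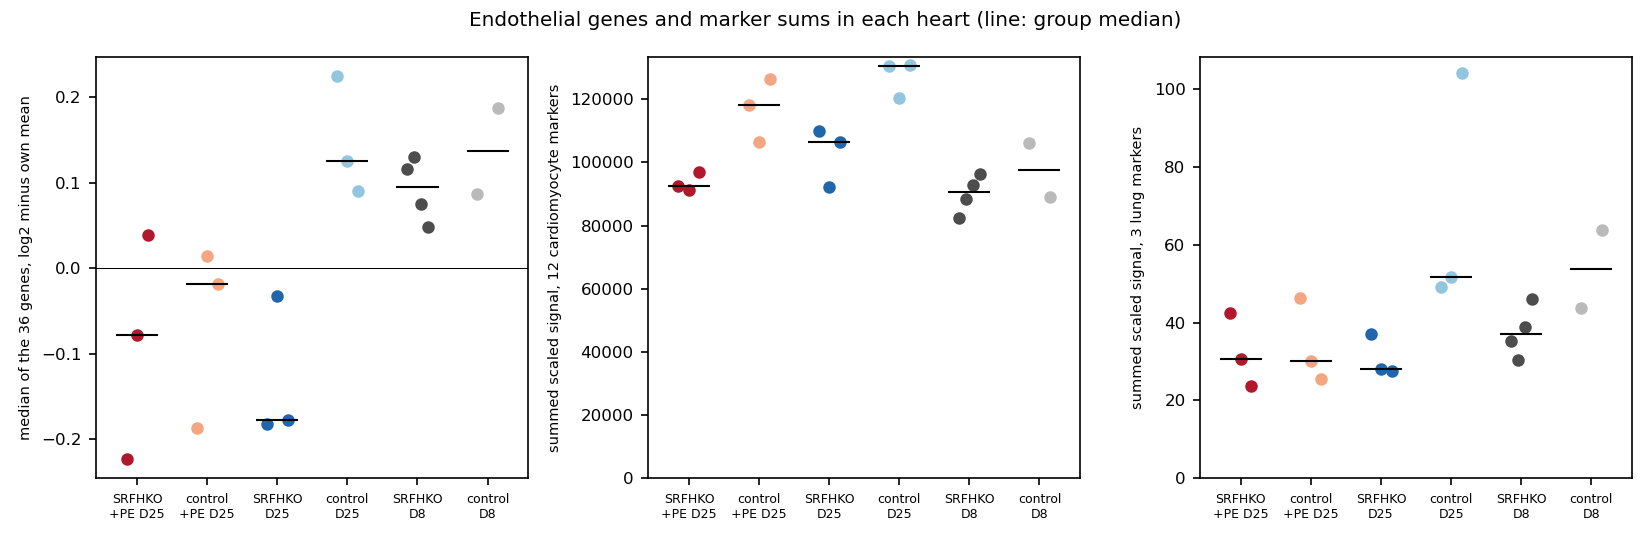
For each heart in the 6 groups, the median log2 value of the 36 endothelial genes relative to each gene's mean, and the summed scaled signals of 12 cardiomyocyte and 3 lung markers; points are hearts and lines group medians. At day 25 without PE the SRFHKO hearts lie below the control hearts in all 3 panels, at -0.18 to -0.03 against 0.09 to 0.22 in the endothelial one.

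Other vascular genes were read from separate lists. At day 25 without PE their counts stand against 2.34% of all genes called, 8.22% higher and 10.1% lower at an unadjusted p below 0.05, and 55.8% below 0. Of 38 further endothelial genes measured, limma called 0, 4 were higher and 4 lower at an unadjusted p below 0.05, 25 were below 0, and the median was -0.06, against -0.05 for all genes. Of 17 secreted guidance and growth factors for vessels, Slit3, a ligand of the Robo family, rose (1.32 ± 0.24, SE, adjusted p = 0.00887), and the list's median was -0.07. Vegfa, the main ligand of Kdr and Flt1, gave 0.11 there. Of 16 genes that respond to Notch, VEGF or flow, limma called 0 (0 higher and 1 lower at an unadjusted p below 0.05) and the median was 0.03. Among 9 markers of mural cells, the pericytes and related cells around capillaries, limma called 0 (0 higher and 1 lower at an unadjusted p below 0.05) and the median was -0.11. Of 6 smooth muscle markers, Myocd, a coactivator of SRF, rose (0.78 ± 0.18, SE, adjusted p = 0.0289), while the list's median was -0.24. With PE, the lymphatic marker Reln fell (-0.89 ± 0.20, SE, adjusted p = 0.0322), as 1 of 6 measured, where 1.63% of all genes were called. The list did not move alike. Flt4 lay wholly higher in SRFHKO hearts (111.7 to 120.9, against 79.8 to 111.3 in control hearts with PE). So did Mmrn1 (49.7 to 62.8, against 22.9 to 49.3), while Lyve1, Prox1 and Pdpn overlapped.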

How the data were processed

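Affymetrix 430 2.0 arrays of 18 ventricles gave an intensity on a linear scale for each of 45101 probe sets. The deposited intensity came from GCOS, the scanner software, per the submitters' processing notes; the sources used here give no version, signal algorithm or scaling target. The authors had not brought the arrays to a common level, so a factor per array set every 2% trimmed mean to 89.98. A pseudocount of 2 was added and log2 was taken, so fold changes understate the change of dim genes.

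Left out were 64 control probe sets and all whose mean was below the 40th percentile (log2 3.58). Names came from the platform annotation, updated with RefSeq names: 34945 probe sets had 1 symbol, 932 several and 9160 none. For a gene with several, the probe set of highest mean was kept, and an _x_at probe set, which can cross-hybridise, was used for 2 members, Egfl7 and Sox17. Of the members, 18 had 1 probe set and 18 several. Where further probe sets lay above the filter (27 of 17 members), 21 had the sign of the one used at day 25 without PE. The number of arrays limits the precision.

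The tests used limma 3.58.1, with data.table (version 1.17.8), under R 4.3.3: 1 fit over 18 arrays with a mean for each of 6 groups, empirical Bayes moderation with an intensity trend, 7 contrasts and two-sided p values adjusted over 12616 genes, with a threshold of 0.05. Arrays correlated between 0.924 and 0.973, and 0 pairs were identical. An exact permutation of 3 hearts against 3 cannot go below p = 0.1. The steps were checked on simulated data. The members, the 17 other lists and the tests were chosen with earlier results of these data known. By rule, values in every heart were given for members past the threshold, for the smallest p of each of 7 functional groups and for the brightest and dimmest member. Values of Esam, Kdr, Tie1, Robo4, Gpihbp1, Emcn, Vwf, Notch1, S1pr1 and Aplnr were given outside this rule, with their results known. The alternatives changed the pseudocount, filter, normalization, trend, probe set choice and samples fitted, and added brightness or a replicate block.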

Additional observations from a re-analysis of the deposited data

Results flagged for a closer look

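At day 8, the only group of 4 hearts, the SRFHKO hearts, was examined for single hearts far from the others, once for each of the 36 genes. Rgcc read 147 in SRFHKO replicate 4 of day 8, against 405 to 486 in the other 3 SRFHKO hearts, and was put forward because the gap took up most of the group's range. A second Rgcc probe set read 322 in that heart, against 265 to 387 in the others, so it was not apart there. Dll4 read 109 in SRFHKO replicate 2 of day 8, against 80.4 to 83.8 in the other 3. A second Dll4 probe set read 59.2 in that heart, against 53.4 to 73.5 in the others. Chance gives such a gap in about 1 in 20 groups, and 2 were found among 36.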

How the results depend on the processing

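The median genotype difference at day 25 without PE stayed below 0 under each alternative run (-0.29 to -0.20) and without any 1 heart (-0.31 to -0.18), but the count of 2 members called did not hold. It was 0 with only the groups compared, 0 with array brightness as a covariate, 1 (Ramp2) with no intensity trend, and 0 to 2 with 1 heart left out. Over the alternatives the adjusted p ran from 0.0257 to 0.148 for Cldn5 and from 0.00934 to 0.192 for Ramp2, and over left-out hearts from 0.0175 to 0.0975 and from 0.0116 to 0.0697. At day 25 with PE the median was -0.15 with the mean of all probe sets of a gene, and between -0.15 and 0.053 with 1 heart left out. For PE in SRFHKO hearts the count called was 0 to 1 with 1 heart left out. The difference of Sox17 at day 8 ran from -1.01 to -0.32 with 1 heart left out. The cause of these moves was not tested. The count at day 25 without PE stayed within 1.5 times under 8 of 11 alternatives, and in the other 6 comparisons it was 0 under each, which can show no change. With a replicate block the count at day 25 without PE was 3 (Aqp1, Cldn5 and Ramp2) with a median of -0.21, all genes called were 306 against 295 without it, and the other counts of members were 0. The numbers are not shown to pair the hearts: none of 40 same-numbered pairs correlated above 0.1 (-0.0835 to 0.0898), though 8 of 12 hearts of day 25 were closest to their own number. No member lay near the filter limit, whereas the lung markers did.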

Other observations

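Of the 38 endothelial genes measured outside the 36, those with the smallest p values, chosen after their values were seen, did not move alike. Tmem100, a membrane protein of arterial endothelium, gave 1.12 ± 0.31 (SE, adjusted p = 0.0676) for SRFHKO against control hearts at day 25 without PE, and -1.48 ± 0.31 (SE, adjusted p = 0.0537) for PE against no PE in SRFHKO hearts. Lmo2, a transcriptional partner in blood and vessel cells, gave 0.82 ± 0.20 (SE, adjusted p = 0.101) for PE in SRFHKO hearts. Efnb2, the arterial ephrin ligand, gave -0.94 ± 0.25 (SE, unadjusted p = 0.00134, adjusted p = 0.245) for SRFHKO against control hearts at day 8. None of the 3 passed the threshold in any of the 7 comparisons.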
